A study of Mus musculus with 12 samples.

Results

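The costimulatory receptors of the TNF receptor family and their adaptors were read in tumour-specific CD8 T cells of mice given checkpoint antibodies. The set held 6 receptors, Tnfrsf4 (OX40), Tnfrsf18 (GITR), Tnfrsf9 (4-1BB), Cd27, Tnfrsf1b (TNFR2) and Tnfrsf14 (HVEM), and 2 adaptors, Traf1 and Traf2. These 8 genes were chosen by name from 48709 listed genes, and all 8 were among the 17833 genes the authors tested in each of 3 comparisons.

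RNA came from 12 libraries in 4 groups of 3, treated with anti-CTLA-4 alone, with anti-PD-1 DANA alone, with both antibodies in combination, or with an isotype control. All mice were wild type C57BL/6 at postnatal day 91 that carried the prostate tumour line TRAMP-C2, and the DANA form of anti-PD-1 has an Fc part mutated so that Fc receptors do not bind it. Antibodies were given on days 3, 6 and 9 in the sample labels, or days 3, 6 and 8 in the series text, and cells that were CD45+, CD3+ and CD8+ and carried receptors for the tumour antigen Spas-1 but not for Spas-2 were sorted from draining lymph nodes on day 28. Cells of 5 mice per group were pooled and then split in 3, so the libraries are technical splits of 1 pool, p-values describe the spread between such splits and nothing wider, and treatment and pool cannot be told apart.

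OX40, GITR, 4-1BB and CD27 carry no enzyme of their own: when a ligand on another cell clusters them, they recruit TRAF adaptors, which switch on NF-kB and prolong the survival and division of a T cell that has met antigen. CD27 is already present on resting T cells, while OX40 and 4-1BB appear after the antigen receptor is engaged, and OX40, GITR and TNFR2 are also abundant on regulatory CD4 T cells. HVEM works in both directions, since it receives LIGHT as a costimulus and engages the inhibitory receptor BTLA.

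Tnfrsf4 and Tnfrsf18 are neighbours on chromosome 4, on the same strand and 9551 bases apart, with 2 other listed genes between them. The 250 bases before a RefSeq transcript start are shown for these genes and for Tnfrsf9, there for the transcript with the most NF-kB-type sequence. These receptors gave the called changes and the neighbour of one of them. The RefSeq starts differ from the gene coordinates given further on. By those coordinates the Tnfrsf4 window ends before its gene and the Tnfrsf18 window reaches into its gene. The Tnfrsf9 window lies within its gene. All 3 are from RefSeq on GRCm38.p6, 5′ to 3′ on the plus strand. Capitals in the Tnfrsf9 window mark a match to the NF-kB-type motif GGGNNNNTCC, which starts 43 bases before the transcript start, and one to the AP-1 motif TGANTCA, which starts 15 bases before it.
Tnfrsf4, chr4:156013445-156013694: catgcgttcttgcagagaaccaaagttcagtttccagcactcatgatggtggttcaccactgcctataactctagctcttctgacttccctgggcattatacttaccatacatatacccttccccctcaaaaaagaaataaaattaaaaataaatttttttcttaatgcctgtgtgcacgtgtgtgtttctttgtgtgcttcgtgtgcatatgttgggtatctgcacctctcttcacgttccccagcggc
Tnfrsf18, chr4:156026072-156026321: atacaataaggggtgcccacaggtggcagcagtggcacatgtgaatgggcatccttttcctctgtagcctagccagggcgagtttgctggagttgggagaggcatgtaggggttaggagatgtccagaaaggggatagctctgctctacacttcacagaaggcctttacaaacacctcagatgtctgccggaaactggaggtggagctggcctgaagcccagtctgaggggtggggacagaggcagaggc
Tnfrsf9, chr4:150927749-150927998: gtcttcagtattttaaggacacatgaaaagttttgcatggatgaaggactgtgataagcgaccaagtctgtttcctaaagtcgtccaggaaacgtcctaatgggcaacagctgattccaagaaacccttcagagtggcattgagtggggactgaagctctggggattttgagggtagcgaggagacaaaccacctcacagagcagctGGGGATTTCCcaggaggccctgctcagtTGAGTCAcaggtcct
All 8 genes matched RefSeq by symbol, with 9 windows, and both strands were searched. The Tnfrsf9 window was the 1 window of the 9 with the NF-kB-type motif, which 16.5% of 32851 windows of the same length held, and the 1 window with the AP-1 motif, which 6.75% of them held. These matches describe the letters alone.

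Anti-CTLA-4 libraries held between 14729713 and 29583827 reads, anti-PD-1 DANA libraries between 24233466 and 31943900, combination libraries between 24594651 and 42556869, and isotype libraries between 23973359 and 32867235. Each comparison table gives the larger of the 2 group means in RPKM (reads scaled to exon length and library size), a log2 fold change of treatment over isotype, and a p-value adjusted over all listed genes, and a gene was called at an adjusted p under 0.05. A standard error was implied from the fold change and its p-value. Reads per library were solved from the deposited means where 1 solution fitted, and libraries are named by their size, since they cannot be tied to replicate numbers. The authors' scaling differs from library size, so that RPKM means and log2 fold changes can differ in direction: the median log2 fold change of all tested genes in the authors' deposited table was -0.62 with anti-CTLA-4, -0.45 when anti-PD-1 DANA was given and -0.42 with the combination, and library size scaling would add 0.94, 0.82 and 0.11.

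Among the markers of the sorted cells, Cd8b1, a chain of CD8, was at 422.2 RPKM after anti-CTLA-4, 413.3 after anti-PD-1 DANA and 345.5 in the larger mean of the combination comparison, in the authors' deposited table. Cd4, which defines helper and regulatory T cells, was at 0.0065 RPKM in the anti-PD-1 DANA comparison and at 0.0053 RPKM in the combination comparison, and it was called higher after anti-CTLA-4 (log2 fold change 8.23 ± 2.36, SE, adjusted p = 0.0390, in the authors' deposited table). The 3 anti-CTLA-4 libraries had 132, 401 and 0 reads of Cd4, with a mean of 2.48 RPKM, or 1.11 RPKM without the highest. Foxp3, the factor that defines regulatory T cells, had a mean of 1.06 RPKM after anti-CTLA-4 and 0.531 RPKM in isotype, and was not called in any comparison in the authors' deposited table. Some genes of B cells and myeloid cells were also abundant. After anti-CTLA-4 the mean was 372.8 RPKM for Cd74, a chaperone of antigen-presenting cells, in the authors' deposited table. Igkc and Ighm, antibody chains, were at 247.7 and 241.6 RPKM there, and Lyz2, a myeloid lysozyme, at 92.1 RPKM. Others were low, with larger means in that comparison of 0.0057 RPKM for Csf1r and 0.0086 RPKM for Itgax, both myeloid. The B cell genes Pax5 and Cr2 were at 1.28 and 1.09 RPKM. In isotype Cd74 was at 156.8 RPKM and Igkc at 90.2 RPKM. Igkc had 214.4, 263.2 and 265.5 RPKM in the anti-CTLA-4 libraries against 132.4, 118.6 and 19.7 RPKM in the isotype libraries. None of Cd74, Igkc, Ighm and Lyz2 was called after anti-CTLA-4 in the authors' deposited table. Their log2 fold changes there were 0.32, 0.55, -0.12 and 0.02. Of 14 listed B cell markers 5 were called higher and 0 lower after anti-CTLA-4. Of 11 tested myeloid and dendritic cell markers 0 were called higher and 3 lower.

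Of the 8 genes, anti-CTLA-4 changed 0 (4.23% of all tested genes were called), anti-PD-1 DANA changed 1 (3.75% called) and the combination changed 1 (7.53% called), in the authors' deposited tables. Tnfrsf4 was called higher after anti-PD-1 DANA and Tnfrsf9 was called lower after the combination. At an unadjusted p under 0.05 the counts were 1, 1 and 3 of 8. No share of all tested genes at this unadjusted threshold is given, here or further on. The unadjusted counts therefore cannot be read as more or fewer than among all genes. The median log2 fold change of the 8 genes was -0.72 after anti-CTLA-4, 0.01 after anti-PD-1 DANA and 0.79 after the combination, and 4, 4 and 5 of them lay above the median of all tested genes. A single call among 8 genes is no result about the set.

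**Figure D1:**
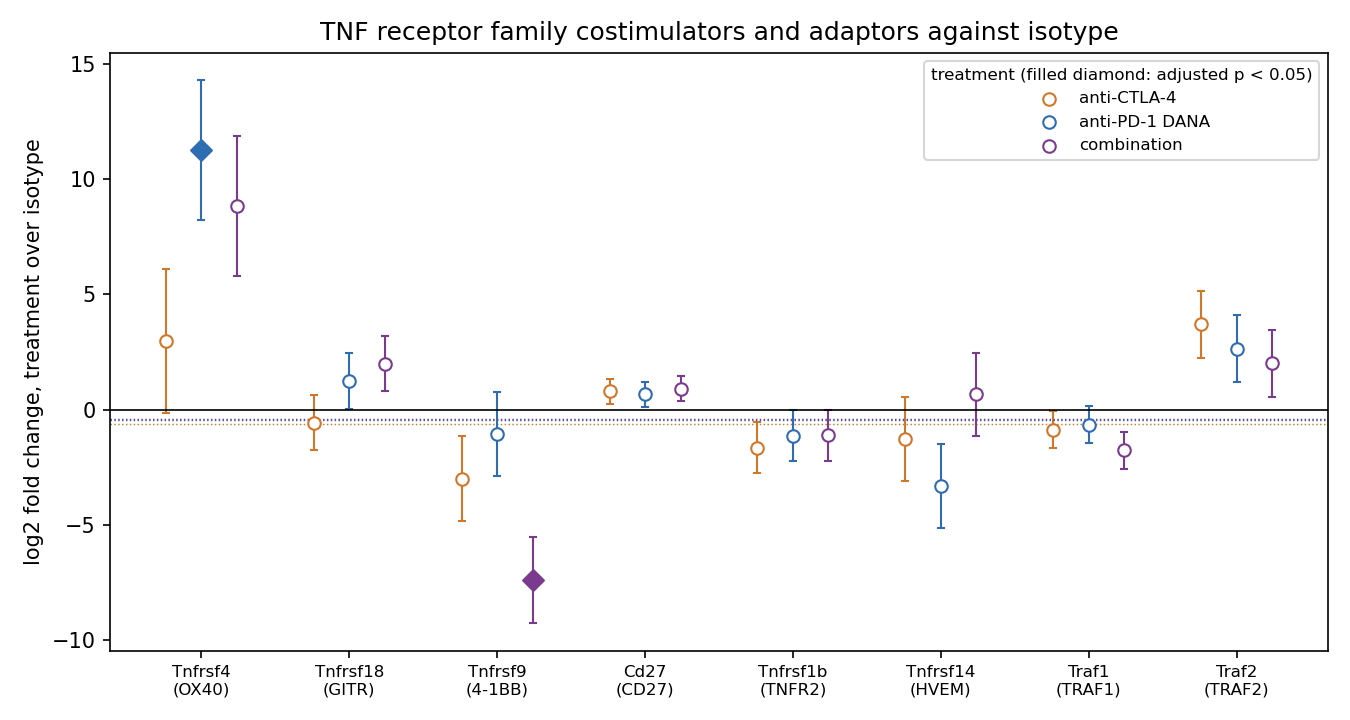
Log2 fold changes of the 8 genes (treatment over isotype, y axis) in the authors' deposited tables, with 1 colour per treatment, bars of 1 implied standard error, filled diamonds at an adjusted p under 0.05 and dotted lines at the medians of all tested genes. Tnfrsf4 after anti-PD-1 DANA (11.28) and Tnfrsf9 after the combination (-7.42) are the 2 filled points.

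Tnfrsf4 (ENSMUSG00000029075, chromosome 4, 156013843 to 156016612, plus strand, GRCm38.p5), the receptor for OX40 ligand, had 330, 445 and 907 reads in the 3 anti-PD-1 DANA libraries (9.98, 12.2 and 20.8 RPKM). In the anti-CTLA-4 libraries it had 1, 1 and 2 reads (0.0497, 0.0384 and 0.0495 RPKM). In the combination libraries it had 168, 0 and 5 reads (5.004, 0 and 0.0861 RPKM), and the isotype libraries together held at most 6 reads, with no library over 0.138 RPKM. Every anti-PD-1 DANA library therefore lay above every library of the other 3 groups, and the combination rested on 1 library, which held 98.3% of its RPKM sum.

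Tnfrsf4 rose after anti-PD-1 DANA by 11.28 ± 3.04 on the log2 scale (SE, adjusted p = 0.0248, in the authors' deposited table). Since the isotype mean is known only to be under 0.0459 RPKM, the ratio of RPKM means is a lower bound: the anti-PD-1 DANA mean of 14.3 ± 5.72 RPKM (SD, n = 3) was at least 312-fold higher. Leaving out 1 library in turn gave means of 11.1 to 16.5 RPKM. The combination comparison gave 8.84 ± 3.04 (adjusted p = 0.0955, in the authors' deposited table), and the combination mean was 1.70 RPKM, or 0.0430 RPKM without the library of 24594651 reads. The anti-CTLA-4 comparison gave 2.98 ± 3.12 on the log2 scale (adjusted p = 0.999989, in the authors' deposited table), from 4 reads in the anti-CTLA-4 libraries together.

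Tnfrsf18 (chromosome 4, 156026164 to 156028895, plus strand), the receptor for GITR ligand, was found in every library that could be solved. It had 1064, 2484 and 1817 reads after anti-PD-1 DANA (28.8, 60.9 and 37.3 RPKM). It had 256, 4118 and 2362 reads after the combination (6.83, 84.5 and 36.4 RPKM) and 361, 563 and 214 reads after anti-CTLA-4 (16.1, 19.3 and 4.75 RPKM). The anti-PD-1 DANA libraries all lay above the anti-CTLA-4 libraries, while the combination libraries overlapped both. The isotype mean was under 13.4 RPKM.

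Tnfrsf18 passed no test against isotype: the log2 fold changes were -0.58 ± 1.20 after anti-CTLA-4, 1.24 ± 1.20 after anti-PD-1 DANA and 1.9998 ± 1.20 after the combination (SE, lowest adjusted p = 0.926, in the authors' deposited tables). The anti-CTLA-4 mean was nevertheless the larger of the 2 in RPKM, and on library size scaling that fold change was 0.37. Tnfrsf4 and Tnfrsf18 did not follow each other within the combination, since the library with 168 of the Tnfrsf4 reads had the fewest Tnfrsf18 reads, 256.

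Tnfrsf9 (chromosome 4, 150914562 to 150946102, plus strand), the receptor for 4-1BB ligand and a marker of recently activated CD8 T cells, showed its largest mean in isotype. The isotype libraries held 1625, 2 and 7 reads (24.9, 0.0300 and 0.0782 RPKM), so 1 library gave 99.6% of the RPKM sum. All 3 treatment means lay under the isotype mean of 8.34 RPKM and could not be given per library. After the combination Tnfrsf9 fell by 7.42 on the log2 scale (SE 1.88, adjusted p = 0.00778, in the authors' deposited table). Without the isotype library of 23973359 reads the isotype mean was 0.0541 RPKM, and the authors' test could not be rerun without it. Leaving out that library lowers the isotype mean of 8.34 RPKM by about as much as the combination fold change under library size scaling, -7.31. A fall of Tnfrsf9 against the other isotype libraries, at 0.0300 and 0.0782 RPKM, is therefore not shown and was not tested.

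For Tnfrsf9 the log2 fold changes after the single antibodies were -3.00 ± 1.84 for anti-CTLA-4 (adjusted p = 0.946) and -1.06 ± 1.84 for anti-PD-1 DANA (SE, adjusted p = 0.999798, in the authors' deposited tables). The isotype library with the Tnfrsf9 reads also held most reads of some other immune genes. Tnf had 2370, 5 and 3 reads in the 3 isotype libraries, Cd40 had 1087, 1 and 0, and Il2 had 375, 1 and 0. Other immune genes had most of their reads in a different isotype library. Cd160 had 5, 1615 and 8 reads, Lta had 249, 1668 and 4, and Ctla4 had 51, 2 and 263. Of 24 solved isotype means among the 8 genes and the lists described further on, 17 had 80% or more of their sum in 1 library, 8 in the one of 23973359 reads, 5 in the one of 24512669 and 4 in the largest. The part of this library in the Tnfrsf9 call was not tested.

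Cd27 (chromosome 6, 125232622 to 125237010, minus strand), which binds CD70 and is kept on resting and memory T cells, was the most abundant of the 8 per exon length. Its mean was 134.9 RPKM after anti-CTLA-4, 112.6 RPKM after anti-PD-1 DANA and 80.4 RPKM after the combination, with isotype under that value. The last mean was read as that of the combination from the direction of its fold change. Its log2 fold changes were close to each other and had the smallest errors of the set, 0.80 ± 0.54, 0.67 ± 0.54 and 0.91 ± 0.54 (SE, lowest adjusted p = 0.921, in the authors' deposited tables). On library size scaling the anti-CTLA-4 value was 1.75 with an adjusted p of 0.0472, so whether Cd27 passed depends on the scaling. Its reads per library could not be solved.

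Tnfrsf1b (chromosome 4, 145213463 to 145246870, minus strand), the TNF receptor that prefers membrane-bound TNF, was highest in isotype, with a mean of 16.1 RPKM. Its log2 fold changes were -1.65 ± 1.11 after anti-CTLA-4, -1.15 ± 1.11 after anti-PD-1 DANA and -1.13 ± 1.11 after the combination, none of which was called in the authors' deposited tables. Its reads per library could not be settled, since 2 solutions fitted the isotype mean and the exon length was not supported by a stricter solution.

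Tnfrsf14 (chromosome 4, 154922210 to 154928563, minus strand) had 254, 807 and 267 reads in the combination libraries (8.92, 21.8 and 5.42 RPKM) and 551, 4 and 32 reads in the isotype libraries (19.8, 0.141 and 0.841 RPKM). All 3 combination libraries held the gene, while 1 isotype library held 95.3% of the isotype RPKM sum, and the groups overlapped. The means were 12.04 ± 8.62 RPKM after the combination and 6.94 RPKM in isotype, and 0.491 RPKM in isotype without the library of 23973359 reads. The log2 fold changes were -1.28 ± 1.81 after anti-CTLA-4, -3.33 ± 1.82 after anti-PD-1 DANA and 0.67 ± 1.81 after the combination (SE, lowest adjusted p = 0.714, in the authors' deposited tables).

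The 2 adaptors differed in direction on the authors' scaling, and neither was called. Traf2 (chromosome 2, 25517982 to 25546940, minus strand), the ubiquitin ligase scaffold that joins the receptors to NF-kB, had 607, 449 and 2987 reads after anti-CTLA-4 (8.08, 4.61 and 19.8 RPKM). It had 207, 1709 and 87 reads after anti-PD-1 DANA (1.67, 12.5 and 0.534 RPKM), where 1 library gave 85.0% of the sum, and 12, 615 and 377 reads after the combination (0.0957, 3.77 and 1.74 RPKM). The isotype mean was under 1.87 RPKM, and every anti-CTLA-4 library lay above every combination library. The log2 fold changes were 3.71 ± 1.46 after anti-CTLA-4 (adjusted p = 0.226), 2.65 ± 1.46 after anti-PD-1 DANA and 2.02 ± 1.46 after the combination, none called in the authors' deposited tables. On library size scaling the anti-CTLA-4 value was 4.66 with an adjusted p of 0.0497.

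Traf1 (chromosome 2, 34941750 to 34961772, minus strand), which is itself switched on by NF-kB and pairs with TRAF2, had means of 22.9 RPKM after anti-CTLA-4 and 24.3 RPKM after anti-PD-1 DANA, and a larger mean of 21.8 RPKM in the combination comparison, read as that of isotype from the direction of its fold change. The log2 fold changes were -0.87 ± 0.80, -0.66 ± 0.80 and -1.77 ± 0.80 (SE), with a lowest adjusted p of 0.383 after the combination in the authors' deposited tables. The first 2 were above 0 on library size scaling, 0.07 and 0.16. Fewer cells with a transcript and less of it per cell cannot be told apart in such bulk libraries.

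**Figure D2:**
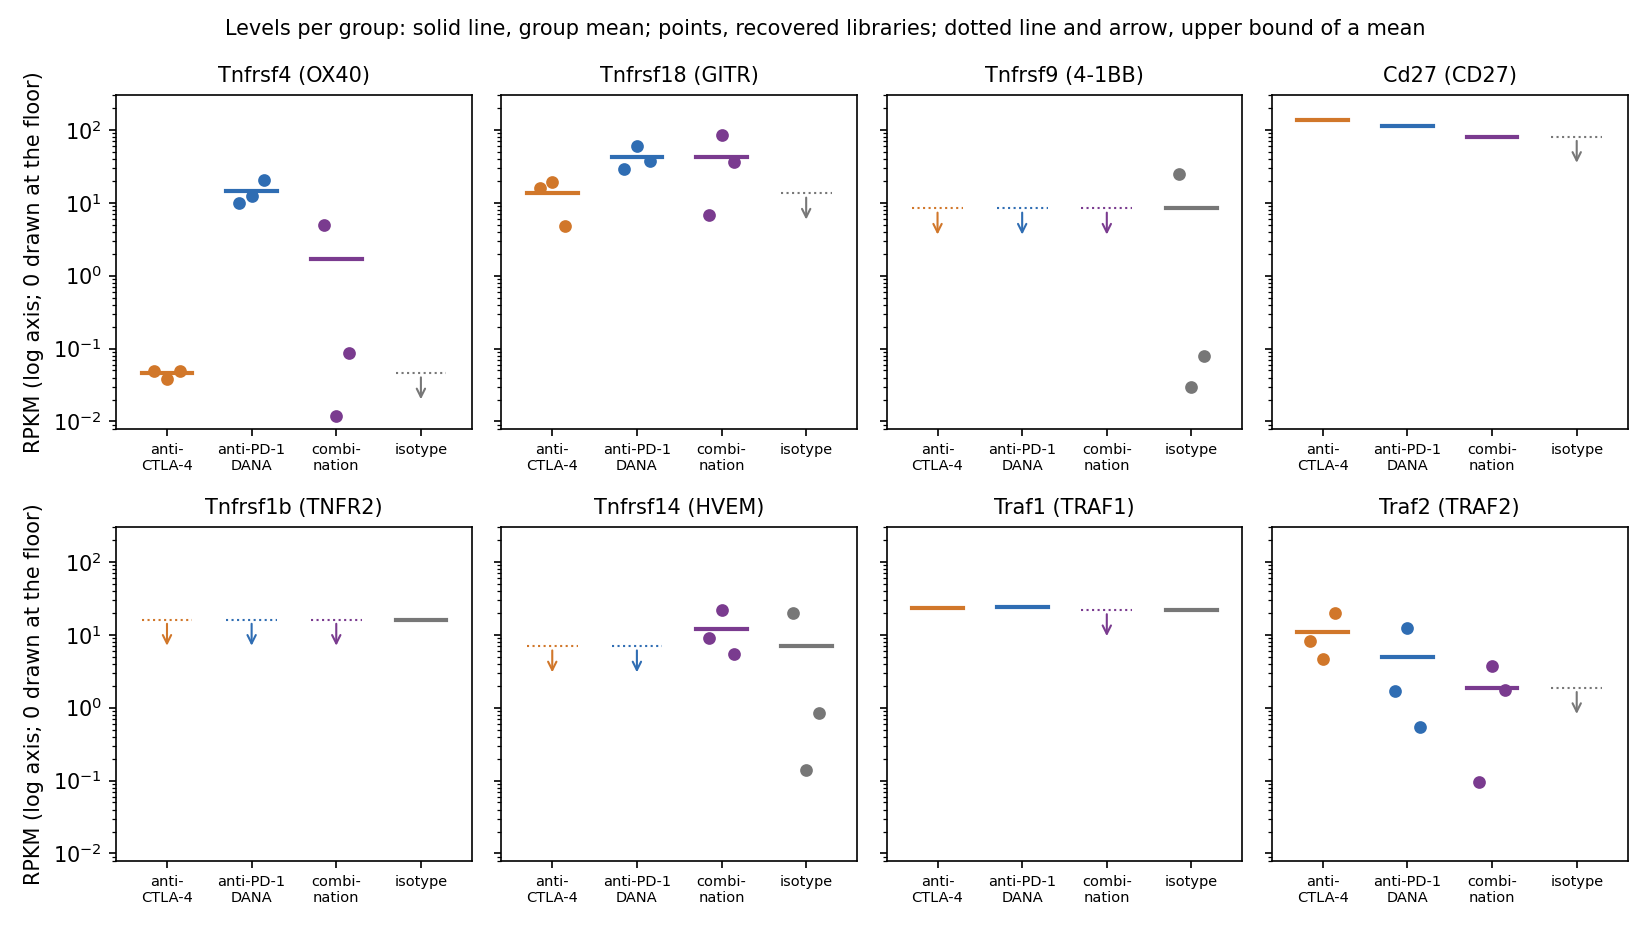
Levels in RPKM (log axis) of the 8 genes in the 3 treatments and, at the right of each panel, isotype: points are solved libraries with 0 drawn just above the lower edge, solid lines are group means, and dotted lines with arrows are upper bounds. The 3 anti-PD-1 DANA points of Tnfrsf4 (9.98 to 20.8) stand apart from the other groups, and 1 isotype point (24.9) carries the Tnfrsf9 mean.

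Direct comparison of the treatments, in which the shared isotype mean drops out, gave 0 called genes among the 8 in each pair. The background at an adjusted p under 0.05 was 0.903% of tested genes for the combination minus anti-CTLA-4. It was 0.449% for the combination minus anti-PD-1 DANA and 0% for anti-PD-1 DANA minus anti-CTLA-4. At an unadjusted p under 0.05 there were 2, 2 and 1 of the 8, a threshold to which that background does not apply. These differences are on the log2 scale, and their errors take the isotype variance as equal to that of the treatments. Tnfrsf4 was 8.30 ± 3.08 higher on the log2 scale with anti-PD-1 DANA than with anti-CTLA-4 (unadjusted p = 0.00709, adjusted p = 1, computed from the authors' deposited tables). The upper bound of this Tnfrsf4 error was 4.36, which would raise the unadjusted p. For Tnfrsf9 the combination minus anti-PD-1 DANA was -6.36 ± 1.86 (adjusted p = 0.136, 95% interval -9.99 to -2.72, computed from the authors' deposited tables). The upper bound of this error was 2.62, which would widen the interval. Tnfrsf14 had a difference of 3.996 ± 1.81 for the combination minus anti-PD-1 DANA (adjusted p = 0.988), and Tnfrsf18 had 2.58 ± 1.20 for the combination minus anti-CTLA-4 (adjusted p = 0.893), both computed from the authors' deposited tables. For Cd27 the combination minus anti-CTLA-4 was 0.10 with a 95% interval of -0.96 to 1.17, and its sign turned to -0.09 with centring on the median of tested genes.

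Over single libraries, two-sided exact permutation tests of RPKM were run for 10 pairs of groups in which both were solved. With 3 libraries a group they cannot go below 0.1. That smallest value was reached by Tnfrsf4 for anti-PD-1 DANA against anti-CTLA-4 and for the combination against anti-PD-1 DANA. It was also reached by Tnfrsf18 for anti-PD-1 DANA against anti-CTLA-4 and by Traf2 for the combination against anti-CTLA-4. After adjustment over the 10 pairs these exact values were 0.25, and Tnfrsf18 after the combination and after anti-PD-1 DANA, with means of 42.6 ± 39.2 and 42.3 ± 16.6 RPKM (SD, n = 3 each), gave an exact p of 1.

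The extent to which a mean rests on 1 library differed between groups for other genes as well. Among genes with a solved mean of 1 to 20 RPKM, 1 library held 80% or more of the sum in 37.0% of 2189 anti-CTLA-4 genes, 40.6% of 1728 anti-PD-1 DANA genes, 64.8% of 786 combination genes and 80.1% of 923 isotype genes. The 3 isotype libraries held 239, 260 and 240 of these isotype genes. For this count an isotype mean was used only where at least 2 tables share it, which selects genes high in isotype, so the shares are not a like-for-like comparison between groups. Tnfrsf4 in the combination and Tnfrsf9 and Tnfrsf14 in isotype belong to this majority, whereas Tnfrsf4 after anti-PD-1 DANA, with 48.4% in its highest library, does not belong to the 1-library genes of its group.

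**Figure D3:**
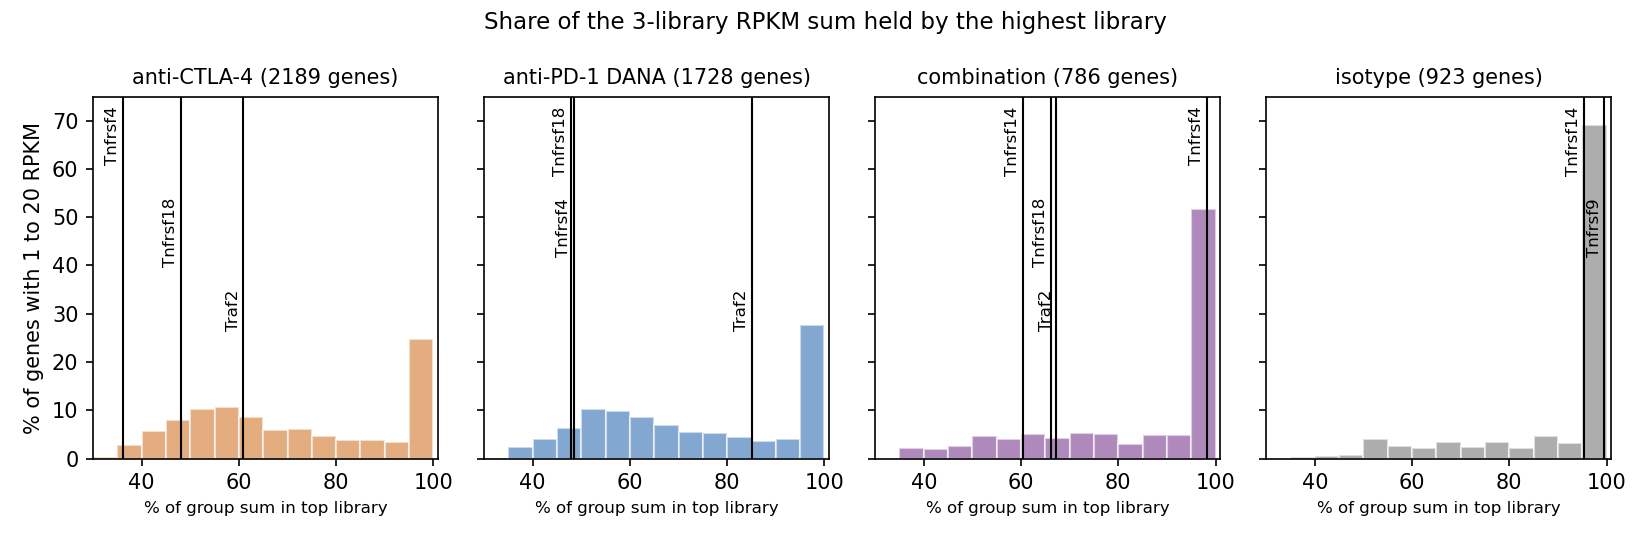
Distribution over genes with a solved mean of 1 to 20 RPKM (y axis, % of genes) of the share of the group's RPKM sum held by its highest library (x axis, %), in 1 panel per group, with black lines at the solved receptors and adaptors. Tnfrsf4 sits at 48.4% after anti-PD-1 DANA and at 98.3% in the combination, and Tnfrsf9 at 99.6% in isotype.

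Of the 9 ligands and binding partners, 6 were tested, and 1, 1 and 0 were called higher and 0, 0 and 1 lower after anti-CTLA-4, after anti-PD-1 DANA and after the combination. Their median log2 fold changes were -1.06, -0.79 and -0.85. Tnfsf4, Tnfsf18 and Cd70, the ligands of OX40, GITR and CD27, were listed at 0 RPKM and untested in all 3 tables. Tnfsf14, which encodes LIGHT, the ligand of HVEM, rose after anti-CTLA-4 by 6.39 ± 1.83 (adjusted p = 0.0378, mean 8.41 RPKM) and after anti-PD-1 DANA by 6.61 ± 1.83 (SE, adjusted p = 0.0302, mean 9.30 RPKM) in the authors' deposited tables. After the combination it gave 1.74 ± 1.85 and a mean of 0.198 RPKM, and was not called in the authors' deposited table.

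Tnfsf9, the 4-1BB ligand, fell by 8.55 after the combination on the log2 scale (SE 2.62, adjusted p = 0.0426), against an isotype mean of 3.91 RPKM in the authors' deposited table, so receptor and ligand of this pair were both called lower there. The 2 did not move alike after anti-PD-1 DANA, where Tnfsf9 gave -7.55 (SE 2.39, adjusted p = 0.0783) and Tnfrsf9 -1.06, in the authors' deposited table. After anti-CTLA-4 they gave -1.58 and -3.00, and neither was called after a single antibody. Centring on the median of tested genes ends the Tnfsf9 call. Tnf, with 20.2 RPKM in isotype, and Lta, with 18.9 RPKM, were not called, and their isotype means each rested mostly on 1 library. Btla, with 11.7 RPKM in isotype, and Cd160, with 11.6 RPKM after the combination, the receptors that HVEM engages, were not called in the authors' deposited tables. The Cd160 reads after the combination were 33, 12 and 3837, and the mean was 0.325 RPKM without the library of 42556869 reads.

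Among 16 other TNF receptors 13 were tested, with 0, 0 and 1 called higher and 1, 1 and 0 lower after anti-CTLA-4, after anti-PD-1 DANA and after the combination. Their medians were -0.68, -0.01 and 0.75. Cd40, a receptor of antigen-presenting cells, fell by 8.26 after anti-CTLA-4 (adjusted p = 0.0181) and fell by 8.99 after anti-PD-1 DANA (adjusted p = 0.0104) in the authors' deposited tables, against an isotype mean of 4.44 RPKM that came almost wholly from 1 library. Relt, a family member of haematopoietic tissue, rose by 3.55 ± 1.11 after the combination (SE, adjusted p = 0.0494, mean 32.1 RPKM), and Tnfrsf25 (DR3), at 22.3 RPKM in isotype, gave -2.35, -3.13 and -3.29 without a call in the authors' deposited tables.

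Of 23 genes of TRAF and IKK signalling, all tested, 2, 2 and 2 were called higher and 0, 0 and 1 lower after anti-CTLA-4, after anti-PD-1 DANA and after the combination, with medians of -0.14, -0.53 and -0.23. The same pair was called in all 3. Chuk, the kinase IKK alpha of the alternative NF-kB pathway, rose by 5.61, 5.73 and 6.77 (SE 1.42 each, adjusted p = 0.0133, 0.0123 and 0.000927, in the authors' deposited tables), to means of 4.71, 4.62 and 5.75 RPKM. Ikbkg, which encodes NEMO, the scaffold of the IKK complex, rose by 6.91, 7.28 and 5.48 (SE 1.55 each, adjusted p = 0.00424, 0.00268 and 0.0223, in the authors' deposited tables). In the combination its reads were 402, 38 and 119, and the mean of 0.836 RPKM was 0.246 RPKM without the first of these libraries. Tradd, the adaptor of death domain receptors, fell by 4.97 after the combination (adjusted p = 0.0243, isotype mean 21.7 RPKM, in the authors' deposited table), and Rela, at 34.6 RPKM in isotype, was not called. The 3 comparisons share the isotype libraries.

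Of 19 genes listed here as NF-kB targets, 0, 0 and 1 were called higher and 0, 1 and 0 lower after anti-CTLA-4, after anti-PD-1 DANA and after the combination, with medians of -0.57, 0.12 and -0.03. Cd83, a surface protein of activated lymphocytes and dendritic cells, fell by 9.07 after anti-PD-1 DANA (SE 1.70, adjusted p = 0.000363, isotype mean 15.8 RPKM) and Bcl3, a nuclear IkB protein, rose after the combination by 6.70 (SE 2.05, adjusted p = 0.0426) in the authors' deposited tables. The Bcl3 reads after the combination were 1, 184 and 687, and the mean of 2.95 RPKM was 1.17 RPKM without the last of these libraries. Nfkbia, the classical feedback inhibitor, had larger means of 87.6, 88.8 and 79.7 RPKM, and Junb had an isotype mean of 108.7 RPKM, without a call in the authors' deposited tables.

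**Figure D4:**
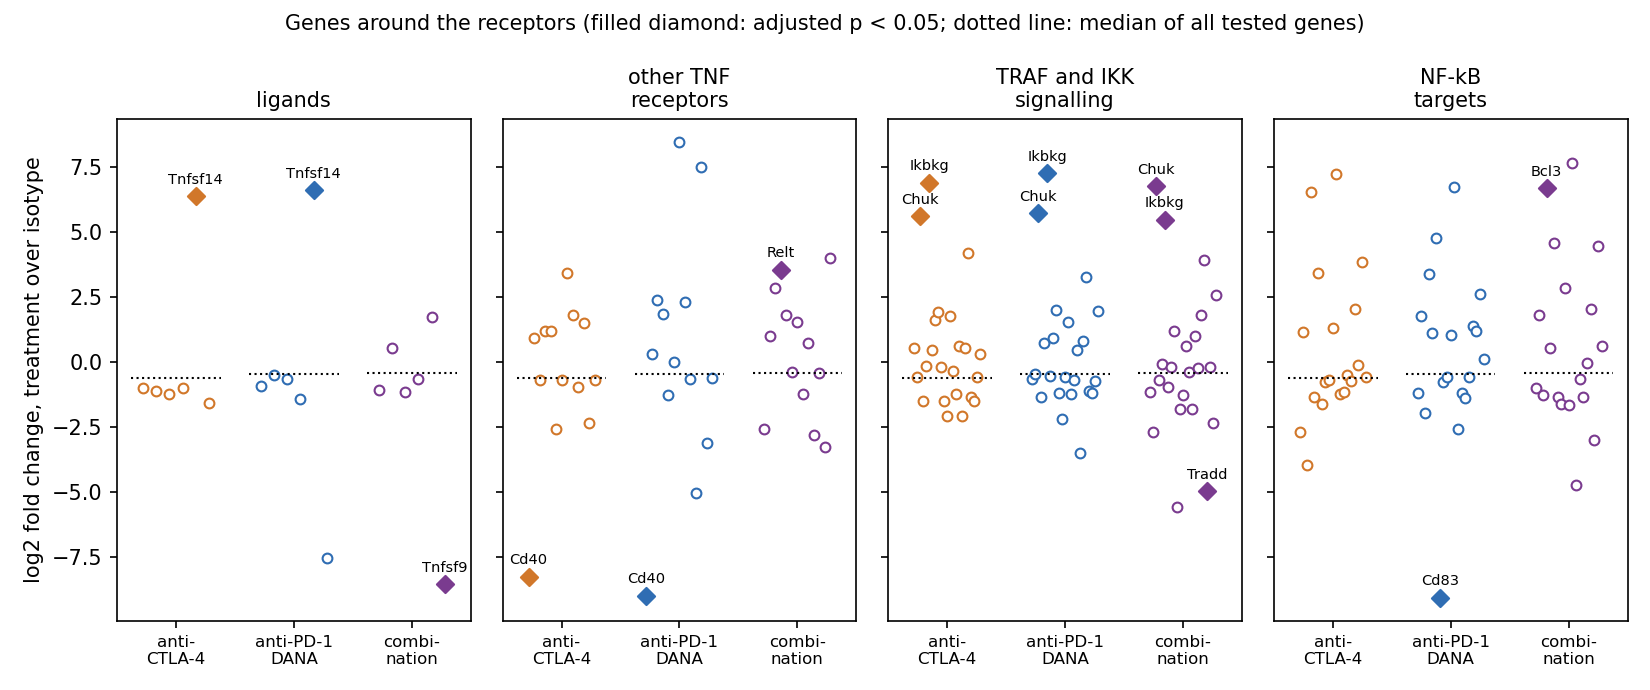
Log2 fold changes (y axis, treatment over isotype) of the tested ligands, other TNF receptors, TRAF and IKK signalling genes and NF-kB targets after anti-CTLA-4, after anti-PD-1 DANA and after the combination, with called genes as filled, named diamonds and dotted lines at the medians of all tested genes. Chuk and Ikbkg are filled in all 3 columns, and Cd83 after anti-PD-1 DANA (-9.07) is the lowest filled point.

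A list of 7 other costimulatory genes, with Cd28 and Icos among them, gave 0 calls in each of the authors' deposited tables, and 1 gene in each had an unadjusted p under 0.05. Its most abundant gene, Cd2, had larger means of 120.7, 130.9 and 93.2 RPKM in the authors' deposited tables. Among 12 genes of activation and effector function, 2, 3 and 2 were called higher and 0 lower after anti-CTLA-4, after anti-PD-1 DANA and after the combination. Tbx21, the factor of effector T cells, rose by 7.27, 6.65 and 6.97, and Prf1, which encodes perforin, by 5.57, 7.07 and 5.34, in the authors' deposited tables. The Tbx21 reads after the combination were 1385, 21 and 84, and the mean of 7.90 RPKM there was 0.529 RPKM without the library of 24594651 reads, the one that also held the Tnfrsf4 reads. Gzmb, a granzyme, rose after anti-PD-1 DANA by 7.82 ± 2.28 (SE, adjusted p = 0.0449, in the authors' deposited table), the comparison in which Tnfrsf4 was called.

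Markers of other cells moved in both directions. Of 14 B cell markers, 5, 0 and 2 were called higher and 0, 1 and 1 lower after anti-CTLA-4, after anti-PD-1 DANA and after the combination. Of 11 tested myeloid and dendritic cell markers, 0, 1 and 0 were called higher and 3, 1 and 2 lower, and of 5 tested NK markers 0 were called higher and 0, 1 and 1 lower. Of 8 CD4 and regulatory T cell markers, 1, 0 and 0 were called higher and 0, 0 and 1 lower, where the gene called lower after the combination was Ccr8 (-7.77, adjusted p = 0.0467, isotype mean 7.22 RPKM, in the authors' deposited table), a chemokine receptor. Of 8 CD8 T cell genes 0 were called higher and 1, 0 and 0 lower, Ptprc (CD45) after anti-CTLA-4 (-1.33, adjusted p = 0.0254, in the authors' deposited table). Median centring and library size scaling each end the calls of Ptprc and Ccr8, and both end that of Fcgr3 after anti-CTLA-4. Fcgr3, an Fc receptor of myeloid and NK cells, was called lower in all 3 authors' deposited tables, and its isotype reads were 467, 3 and 0, with the most in the library that held the Tnfrsf9 reads. The part of such cells in the changes of Tnfrsf4 and Tnfrsf9 was not tested. In the anti-PD-1 DANA comparison, where Tnfrsf4 was called, 0 of the 8 CD4 and regulatory T cell markers were called and 1, Il2ra, had an unadjusted p under 0.05 (log2 fold change 6.74), in the authors' deposited table. Their larger means ran from 0.0065 RPKM for Cd4 and 0.162 RPKM for Il2ra to 2.16 RPKM for Ctla4 and 19.5 RPKM, in isotype, for Izumo1r.

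By distance over the 3 log2 fold changes, among 6667 tested genes with a larger mean of 5 RPKM or more, the genes nearest to Tnfrsf4 were Cbll1 (distance 3.28), Tefm (4.08) and Cptp (4.10). Cbll1, for instance, had 4.81, 9.00 and 7.35 after anti-CTLA-4, after anti-PD-1 DANA and after the combination in the authors' deposited tables. The genes nearest to Tnfrsf9 were Gm16618 (0.346), Trav4d-4 (0.399) and Mr1 (0.469), with combination values of -7.43, -7.47 and -7.47.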

How the data were processed

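For each treatment the authors deposited a comparison with isotype over 48709 genes. Per the labels' protocols CLC Genomics Workbench aligned and counted the reads, with version, annotation release and statistical model not given in the sources used here. GRCm38.p5 was the genome build, per the submitters' processing notes. RNA (0.25 ng) was amplified with 21 cycles, per the labels' protocols, so reads are not independent molecules. The larger group mean deposited by the authors is in RPKM, as its values show. The log2 fold change in the authors' tables is treatment over isotype. The p-values deposited by the authors were adjusted by Benjamini-Hochberg over all listed genes, although 17833 were tested.

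The isotype mean was taken as the value that at least 2 tables share. A mean seen in 1 table was given to isotype where its reads could be solved in the isotype libraries and not in the treatment libraries, or, for Traf1, from the direction of the fold change. Each standard error was implied by dividing the size of the log2 fold change by the normal quantile that gives its p-value, as in a Wald test. Differences between treatments used equal variances of group means where the 3 errors lay within 5% (10237 genes) and an upper bound otherwise. Equal errors do not show that isotype has the same variance as the treatments. Library sizes were recovered from low means and exon lengths (GENCODE M21, 96.8% of genes matched), and whole reads per library were enumerated. Single solutions were found for 89.1% to 92.1% of means tried, and for 0.488% to 1.47% when 1 base was added to each exon length. The steps were tested on simulated data and run in Python 3.11.15, numpy 2.4.6, pandas 2.3.3 and scipy 1.17.1. In the simulation isotype and treatments had equal variances, so errors of differences were not tested for unequal ones. Its reads were low in number with at most 0.05 solutions expected by chance, against 0.293 for Tnfrsf18 in the combination. Intervals and bounds cover counting or fit error only.

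The genes of the set and the 11 lists beside it were chosen with earlier results of these data known. The text names all genes of the set and all ligands, called genes and the 2 most abundant of the other lists where they bear on the set, and for each called gene the 3 nearest. Foxp3, Il2, Ctla4, Itgax, Pax5, Cr2 and the isotype library reads of Tnf, Cd160 and Lta were chosen after their values were seen. Alternatives were adjustment over tested genes, Bonferroni adjustment, library size scaling, median centring, a mean of 5 RPKM or more, the upper bound of the error, and, chosen after seeing the data, leaving out single recovered libraries and exact permutation tests.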

Additional observations from a re-analysis of the deposited data

How the results depend on the processing

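The 2 called genes, Tnfrsf4 and Tnfrsf9, kept their direction under library size scaling and median centring, whose shifts were far smaller than their fold changes. An adjustment of p-values leaves a fold change as it is. Their fold changes were not computed without single libraries. The anti-CTLA-4 count of called genes among the 8 was 0 and became 2 with library size scaling (Cd27 and Traf2). With Bonferroni adjustment the anti-PD-1 DANA count of 1 became 0 and the combination count of 1 became 0. With adjustment over tested genes the combination count became 2, since Tnfrsf4 then had an adjusted p of 0.0349. The share of all tested genes called under that scaling or that adjustment is not given. Neither count of 2 is therefore a result about the set. The shifts under Bonferroni adjustment and adjustment over tested genes follow from the stricter or looser construction of the adjustment. Under library size scaling they follow from adding 0.94 to each anti-CTLA-4 log2 fold change with its error unchanged. Which scaling is the right one was not tested. Median centring and a minimum mean of 5 RPKM kept each count as it was. All 24 differences between treatments were uncalled, and the upper bound of the error, which can only raise their p-values, could not change that. Of 66 counts of called genes in the lists, 12 differed by more than 1.5 times with adjustment over tested genes and 8 with median centring: NF-kB targets called higher were 1 after anti-CTLA-4 (0 as deposited) and 2 after the combination (1 as deposited) with both, ligands called lower were 1 after anti-PD-1 DANA (0 as deposited) over tested genes and 0 after the combination (1 as deposited) with centring, other TNF receptors called lower were 2 after anti-PD-1 DANA (1 as deposited) over tested genes, and the rest were cell markers. With median centring the uncalled fold change of Tnfrsf18 after anti-CTLA-4 became 0.04, and 2 uncalled differences turned sign, Cd27 for the combination minus anti-CTLA-4 (-0.09) and Tnfrsf1b for the combination minus anti-PD-1 DANA (-0.01). No paired analysis was possible because the tables hold no values per library for all genes and recovered libraries carry no replicate number. Fits without single replicates and with a replicate block were not run for the same reason. With 3 splits of 1 pool per group, uncalled differences were not detectable at this precision, with implied errors from 0.54 to 3.12 on the log2 scale, and are not shown to be absent.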
